A study of Schmidtea mediterranea with 6 samples.

Results

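In the whole-body transcriptome of the planarian Schmidtea mediterranea, 174 of 36035 gene IDs were abundant before lethal irradiation and were left at between 25% and 50% of that level afterwards. They were chosen on TPM (a transcript level scaled for gene length and for the total of the library) by the same libraries that are described here. Each had a mean of 20 TPM or more in unirradiated animals, a ratio of irradiated to unirradiated mean above 0.25 and up to 0.5, and every irradiated library below every unirradiated library. The rule used these values, so the size, direction and separation of the difference are descriptions and were given no test.

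The series held 3 libraries of animals labelled day 3 after lethal irradiation and 3 libraries of untreated animals labelled day 0. Both groups were whole bodies of wild-type animals. No label says how many animals went into a library or whether replicates came from separate cultures, so the spread between libraries may be technical. Irradiation and the 3 days between the groups cannot be told apart. Library totals lay between 12635699 and 19329424 estimated counts in irradiated animals and between 12963851 and 20914353 in unirradiated animals, and replicate 3 was the deepest of each group. The files do not pair the gene IDs with gene names, so no role is given to any ID and the labelled tissue was not checked against marker genes.

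This freshwater flatworm renews its tissues from neoblasts, dividing stem cells that a lethal dose of irradiation is known to remove. Their post-mitotic descendants are known to be lost later than the neoblasts, as they mature without being replaced, and differentiated tissues persist longest. A transcript made both by cells that are lost and by cells that stay is lowered in part in a whole-body measurement. In such libraries fewer cells of a type and less RNA per cell cannot be told apart.

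The members lay in a narrow band of the comparison between group means. The median member kept 43.6% of its unirradiated TPM, and the quartiles were 34.8% and 47.3%. The distribution leaned towards the upper limit of the rule: 79 members kept 45% to 50%, 30 kept 40% to 45%, 20 kept 35% to 40%, 27 kept 30% to 35% and 18 kept 25% to 30%. Over all 5166 IDs of 20 TPM or more in unirradiated animals the median was 104%, so TPM placed the typical abundant transcript slightly above its unirradiated level.

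**Figure D1:**
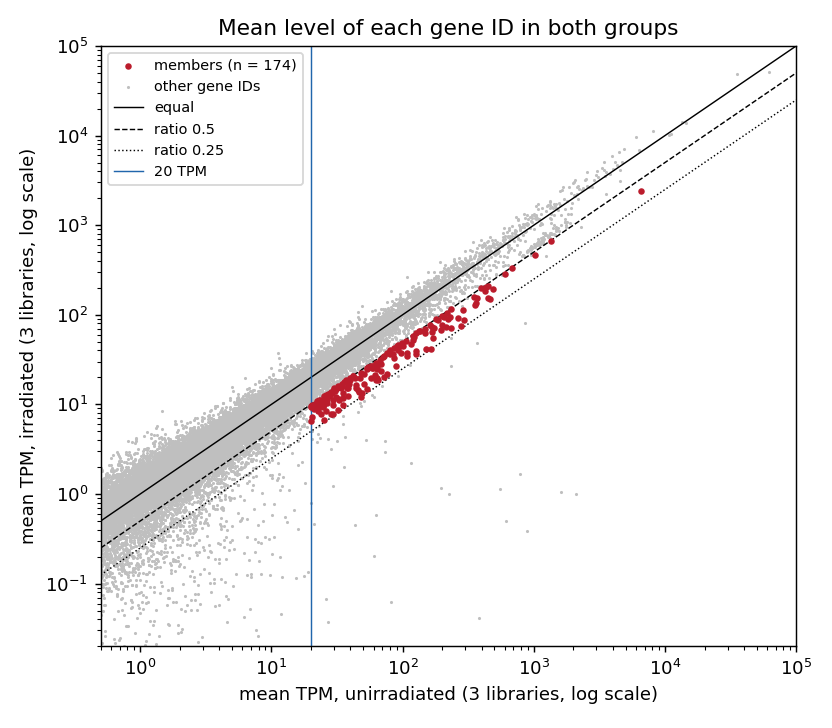
Mean TPM of each gene ID in irradiated animals (vertical axis) against unirradiated animals (horizontal axis), 3 libraries per group, both axes logarithmic; IDs under 0.5 TPM in unirradiated or 0.02 TPM in irradiated animals are not drawn. The 174 members (red) lie between the lines of ratio 0.25 and 0.5 to the right of 20 TPM, and 1 member stands apart at 2407 TPM in irradiated animals and 6599 TPM in unirradiated animals.

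SMED30005838 was by far the most abundant member. It had 2504, 2447 and 2269 TPM in irradiated libraries, against 6949, 6586 and 6263 TPM in unirradiated libraries. The means were 2407 ± 122 TPM in irradiated and 6599 ± 343 TPM in unirradiated animals (SD, n = 3 each), so 36.5% was left. The log2 difference was -1.46 with a standard error of 0.06 from the spread between libraries. The lowest unirradiated library held more than double the level of any irradiated library. Ranked among all IDs by mean TPM, this transcript stood 47th in irradiated animals, against 8th in unirradiated animals. Its effective length, read from the ratio of estimated count to TPM, was 0.0663 of the median of IDs at 20 TPM or more, so this high TPM came from a short transcript. Its counts were nonetheless large, between 2182 and 3121 in irradiated libraries and between 6098 and 9302 in unirradiated libraries.

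The next members in abundance were left at 40% to 50%. SMED30023159 had 640.1, 711.8 and 665.8 TPM in irradiated libraries, against 1313, 1320 and 1434 TPM in unirradiated libraries. SMED30026225 had 463.6, 429.9 and 496.1 TPM in irradiated libraries, against 1062, 1052 and 947.6 TPM in unirradiated libraries. In both the libraries of a group lay close together, and the groups were far apart on that scale: the log2 differences were -1.01 with a standard error of 0.06 and -1.14 with a standard error of 0.08. SMED30020749 averaged 332.0 ± 20.1 TPM in irradiated and 684.6 ± 56.8 TPM in unirradiated animals (SD, n = 3 each). SMED30005835 was the least even of the 6 most abundant members, with 296.9, 330.9 and 219.4 TPM in irradiated libraries, against 602.1, 551.2 and 654.3 TPM in unirradiated libraries. Its low irradiated library was replicate 3, and its log2 difference of -1.11 had a standard error of 0.19. SMED30028142, sixth in abundance, averaged 196.3 ± 23.2 TPM in irradiated and 488.0 ± 21.9 TPM in unirradiated animals (SD, n = 3 each).

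Together the members made up a small but visible part of the transcript pool, and that part was alike between the libraries of a group. Their summed TPM was 1.09%, 1.11% and 1.05% of the pool in irradiated libraries, against 2.72%, 2.66% and 2.63% in unirradiated libraries. The means were 1.08 ± 0.03% in irradiated and 2.67 ± 0.05% in unirradiated animals (SD, n = 3 each), so the set as a whole kept 40.6% of its share. SMED30005838 alone took 0.241 ± 0.012% in irradiated and 0.660 ± 0.034% in unirradiated animals, which was 24.7% of the summed unirradiated level of all members. Without it the other 173 members took 0.844 ± 0.023% in irradiated and 2.01 ± 0.01% in unirradiated animals. The 120 members under 100 TPM contributed 0.219 ± 0.002% in irradiated and 0.528 ± 0.009% in unirradiated animals. Measured by counts instead of TPM, which does not correct for length, members held 0.664% to 0.684% of a library in irradiated animals and 1.64% to 1.68% in unirradiated animals.

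**Figure D2:**
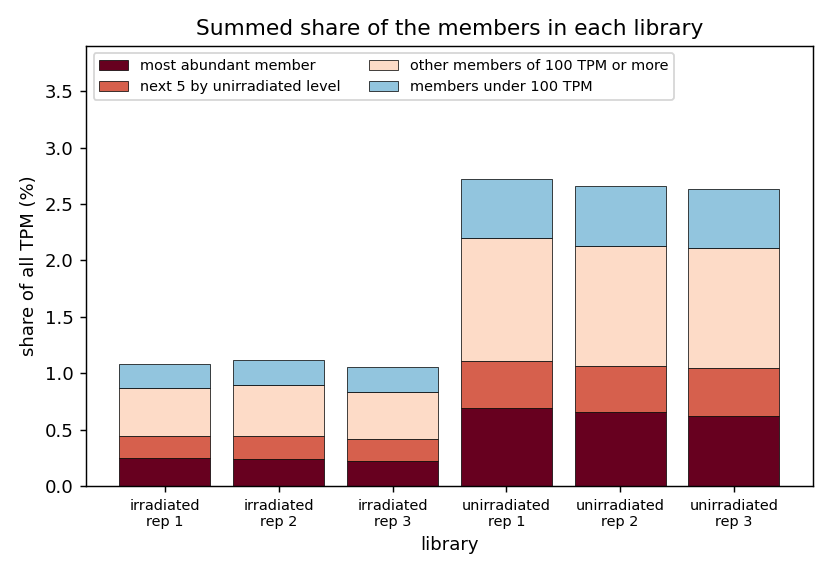
Summed share of all TPM held by the members in each of the 3 irradiated and 3 unirradiated libraries, in percent, stacked by the unirradiated level of the members. The totals lie between 1.05% and 1.11% in irradiated libraries and between 2.63% and 2.72% in unirradiated libraries, and each layer is lower in the irradiated libraries.

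The members accounted for more of the lost pool share than the more strongly lowered transcripts above the same limit of 20 TPM. They were also more numerous. Over all 15403 IDs with a lower mean in irradiated animals, the lost share summed to 12.6% of the pool, and the members lost 1.59 percentage points of it. That was 12.6% of all loss, carried by 174 IDs. The 29 IDs of 20 TPM or more that were lowered 4- to 20-fold, by the same separation of groups, carried 1.90% of the loss. The 22 lowered further carried 6.36%. These 29 and 22 IDs held 0.279% and 0.800% of the unirradiated pool, against 2.67% for the 174 members. The 1967 IDs of 20 TPM or more that were lower on average but kept over 50% carried 66.7%. These sums take every ID with a lower mean, without a threshold, so scatter between libraries adds to them. TPM has an equal sum in every library, so the share lost by these IDs was gained by others. Within the members the loss was concentrated: 12 members carried 50% of it, and the 6 largest losses made up 40.4%. The unirradiated level was concentrated too, since the 6 most abundant members held 1.075% of the pool out of the 2.67%. The rule holds the fraction lost within a narrow range, so loss in TPM must largely follow abundance. The concentration of loss is therefore mostly that of abundance and no separate result.

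Members occurred in every class of abundance. They were 80 of 2857 IDs with 20 to 50 TPM in unirradiated animals (2.80%), 40 of 1084 IDs with 50 to 100 TPM (3.69%), 49 of 929 IDs with 100 to 500 TPM (5.27%) and 5 of 296 IDs above that (1.69%). The median level left was 44.6%, 43.8%, 41.3% and 46.9% from the lowest to the highest class. The rule admits only 25% to 50%, so these medians could not lie far apart and say nothing on how loss goes with abundance. Members were 5 of the 500 most abundant IDs of irradiated animals and 19 of the 500 most abundant IDs of unirradiated animals. After irradiation 91 members still averaged 20 TPM or more, 82 of them in each irradiated library. The rule keeps each member above 25% of its unirradiated level, so all members of 100 TPM or more had to average over 20 TPM. The count of 91 is therefore largely set by the rule and the members' abundance.

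**Figure D3:**
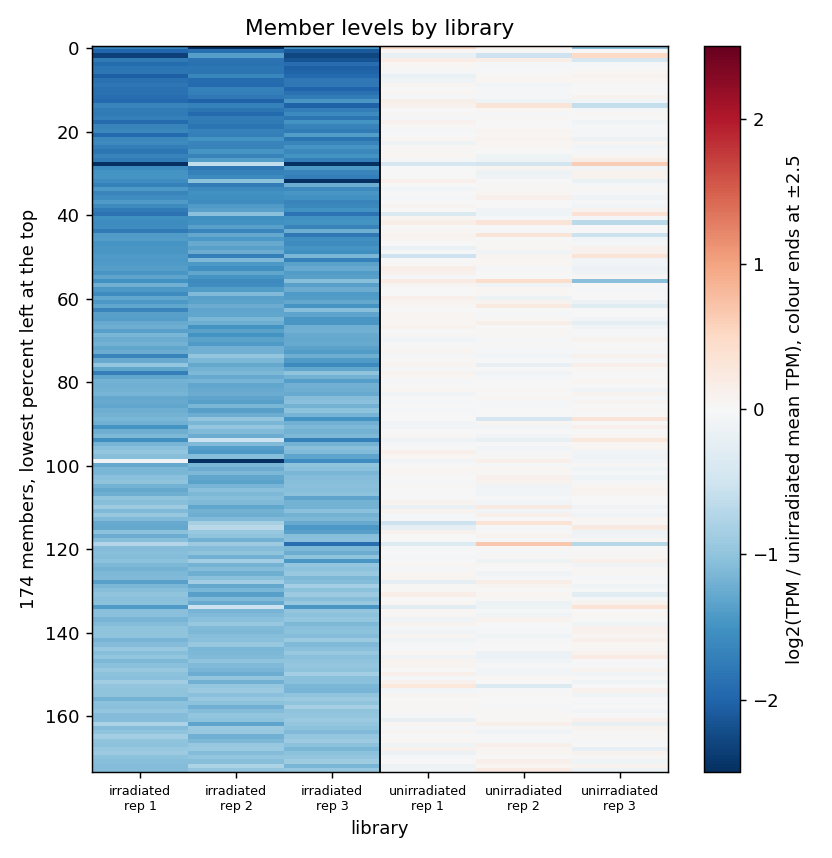
Level of each of the 174 members in each library, as log2 of its TPM over its own mean in unirradiated libraries (colour), for irradiated libraries on the left and unirradiated libraries on the right, with the lowest percent left at the top. The irradiated columns are blue in nearly all rows and look alike, and a few rows break the pattern, such as a pale cell in irradiated replicate 1 where SMED30003071 had 25.8 TPM.

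The median level of the members was nearly the same in the 3 irradiated libraries. The median member stood at -1.23, -1.23 and -1.22 in irradiated replicates 1, 2 and 3, on a scale of log2 TPM over the unirradiated mean. The coefficient of variation of TPM between libraries had a median of 7.65% over members in irradiated animals and 5.19% in unirradiated animals. Over all IDs of 20 TPM or more the medians were 5.65% in irradiated and 5.03% in unirradiated animals. Over the 29 IDs lowered 4- to 20-fold they were 14.9% and 6.78%. For the members the rule itself limits this spread, because it asks that the groups do not overlap. It also uses these 3 irradiated libraries, so their like medians are a description and no support for the difference. The standard error of the log2 difference was under 0.1 for 106 members and had a median of 0.08. The lowest unirradiated library exceeded the highest irradiated library at least 2-fold in 82 members, at least 1.5-fold in 164 and by less than 1.2-fold in 5. The rule asks for separated groups with means at least 2-fold apart, so wide gaps are largely built in.

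Evenly lowered members show how small the spread could be. SMED30034697 had 197.2, 194.9 and 197.5 TPM in irradiated libraries, against 409.6, 394.8 and 391.8 TPM in unirradiated libraries. Its log2 difference was -1.02 with a standard error of 0.02, the smallest among the members. SMED30025522 had 186.7, 179.5 and 187.2 TPM in irradiated libraries, against 425.0, 416.7 and 423.0 TPM in unirradiated libraries, and kept 43.8%. Both were named after their values were seen. In both, the level after irradiation varied by a few TPM around a clearly lower value.

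As a description of the same contrast, edgeR's quasi-likelihood test on counts called 172 members lower at an adjusted p below 0.05, and all 172 at least 2-fold. Over all 20378 IDs tested, 20.4% were called lower and 5.40% were called lower at least 2-fold. Since the members were chosen on this contrast, their share carries no further information. The median log2 fold change was -1.27 over the members tested, between -2.06 and -1.05, and 0.01 over all IDs tested. The requirement that every irradiated library lie below every unirradiated library was met by 29.0% of all IDs of 20 TPM or more. Of the remaining members, 1 was tested and not called and 1 did not pass the filter on low counts.

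Those 2 members were the shortest of all and rested on very few reads. SMED30003071 had 11, 1 and 6 counts in irradiated libraries, against 12, 13 and 17 counts in unirradiated libraries. Its TPM was 25.8, 2.24 and 9.34 in irradiated libraries, against 26.2, 29.8 and 26.4 in unirradiated libraries. The exact 95% Poisson interval of the single count in irradiated replicate 2 ran from 0.0253 to 5.57, and that of the 11 counts in replicate 1 ran from 5.49 to 19.7. The groups are thus separated in TPM by less than counting error. SMED30027656 had 5, 7 and 8 counts in irradiated libraries, against 9, 16 and 21 counts in unirradiated libraries. Their relative lengths were 0.0310 and 0.0408. In all, 6 members had under 20 counts in some library, whereas 122 had 100 counts or more in every library. Poisson intervals cover counting error only.

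Effective length was not itself a limit of the rule, but it enters through TPM, on which the rule works. A short ID can therefore reach 20 TPM with few reads. Members had a median relative length of 0.649, where 1 is the median of all IDs of 20 TPM or more, with quartiles of 0.329 and 1.39. The IDs lowered 4- to 20-fold had a median of 0.456, and the 1577 IDs with a ratio of 0.9 to 1.1 had a median of 1.22. A relative length below 1 was found for 62.1% of members, 75.9% of the IDs lowered 4- to 20-fold and 40.8% of the IDs with a ratio near 1. Abundant transcripts were shorter in general, with a Spearman correlation of -0.23 between unirradiated TPM and length over the 5166 IDs and -0.30 over the members. Set beside all IDs of the same class of abundance, members had a median length of 1.05 against 1.19 at 20 to 50 TPM. It was 0.420 against 0.972 at 50 to 100 TPM, 0.571 against 0.756 at 100 to 500 TPM, and 0.256 against 0.487 above that. The difference was thus seen in each class, and was smallest at 20 to 50 TPM, the class with 80 of the members. The highest class held only 5 members and has no upper limit, so abundance is matched loosely there. Gene IDs are not independent replicates, so these lengths are descriptions without a test.

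**Figure D4:**
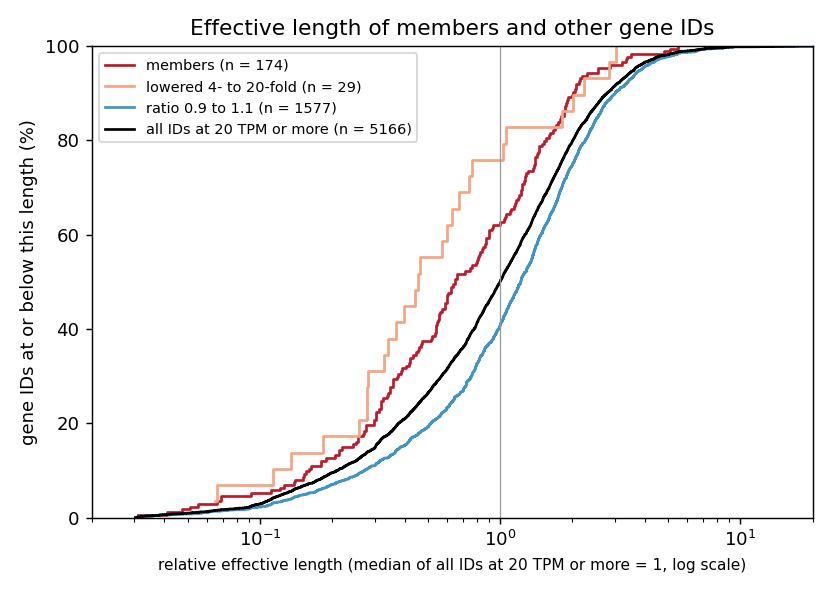
Cumulative share of gene IDs (vertical axis, percent) at or below a relative effective length (horizontal axis, logarithmic, median of all IDs of 20 TPM or more set to 1). The curve of the 174 members lies left of the curve of all 5166 IDs over most of its course, which have medians of 0.649 and 1 on this scale, and the 29 IDs lowered 4- to 20-fold lie further left.

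Members of very different length were found within the band of loss that the rule admits. The longest member, SMED30014446, had a relative length of 5.49 and 41.1, 39.1 and 37.3 TPM in irradiated libraries, against 121.9, 131.1 and 123.4 TPM in unirradiated libraries. It kept 31.2%, less than the short and most abundant SMED30005838. None of its 6 estimated counts was a whole number. Such values can come from reads shared out among similar genes, so its level is less certain. Counts were whole in all libraries for 158 members (90.8%), against 89.6% of all IDs of 20 TPM or more, and in none for 10 members.

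The limits of the rule cut through a continuous range. At the lower limit of the ratio, SMED30021024 kept 25.2%, SMED30018353 25.2% and SMED30002813 26.3%, while the nearest IDs outside, SMED30000190, SMED30007036 and SMED30016351, kept 24.9%, 24.7% and 24.4%. SMED30018353 had 41.6, 44.2 and 38.2 TPM in irradiated libraries, against 166.7, 162.6 and 162.1 TPM in unirradiated libraries. SMED30021024 was far less even, with 14.9, 4.35 and 17.2 TPM in irradiated libraries, against 68.7, 52.6 and 23.4 TPM in unirradiated libraries. Its log2 difference had a standard error of 0.78 and its counts were whole in 0 libraries, so its level left is uncertain. At the upper limit, SMED30030435, SMED30029609 and SMED30027519 kept 49.9% each, while SMED30007461, SMED30017629 and SMED30029855 outside kept 50.3%, 50.5% and 50.6%. At the limit of abundance, the nearest members SMED30005681, SMED30012234 and SMED30035424 had 20.1, 20.1 and 20.2 TPM in unirradiated animals. The nearest IDs outside, SMED30019763, SMED30026659 and SMED30018270, had 19.9, 19.3 and 18.7 TPM and kept 44.1%, 33.1% and 34.8%.

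A few members varied strongly between libraries of one group. In irradiated animals 15 members had a highest library at least 1.5 times the lowest, and in unirradiated animals 15 did, with 6 in both counts and 24 in either. That was 8.62% of the members in each group. Of all IDs of 20 TPM or more it was 4.07% in irradiated and 2.94% in unirradiated animals. Of the 29 IDs lowered 4- to 20-fold it was 41.4% in irradiated and 3.45% in unirradiated animals. Of these 24 members, 10 had a relative length below 0.25 and 4 had under 20 counts in some library. The groups of SMED30021793 nearly touched, with 34.6, 30.5 and 15.5 TPM in irradiated libraries, against 45.5, 91.9 and 35.4 TPM in unirradiated libraries. SMED30023398 was another such member, with 34.1, 32.4 and 46.5 TPM in irradiated libraries, against 112.6, 132.2 and 47.1 TPM in unirradiated libraries. Its counts were whole in 2 of 6 libraries. Its unirradiated replicate 3 lay near the irradiated level. Including it, 6 of the 174 members and 60 of all 5166 IDs of 20 TPM or more were at least 1.3-fold lower in that replicate than in both other unirradiated libraries.

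The opposite profile recurred: some transcripts were high in unirradiated replicate 3 and, at a lower level, in irradiated replicate 2. This pattern was noticed after the values were seen. With at least 1.3-fold over both other libraries of the group in each, 15 IDs of 20 TPM or more had it. Each of the 8 other combinations of 1 irradiated and 1 unirradiated library held between 0 and 5 IDs. All 15 had a lower mean in irradiated animals, 4 were members and 11 were not. Over all 5166 IDs of 20 TPM or more, 174 were members and the median level left was 104%. Among them, 1967 others were lower on average but kept over 50%, and 29 and 22 were lowered more strongly than the members. A lower mean was therefore not rare among abundant IDs. The member SMED30004394 had 25.1, 111.3 and 30.8 TPM in irradiated libraries, against 124.9, 123.9 and 260.6 TPM in unirradiated libraries. Its irradiated replicate 2 came close to the lower unirradiated libraries, whereas the other irradiated libraries were far below them. Its counts were whole in 0 libraries. The other 3 members were SMED30020397, SMED30030302 and SMED30002813, which kept 34.6%, 47.6% and 26.3%.

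**Figure D5:**
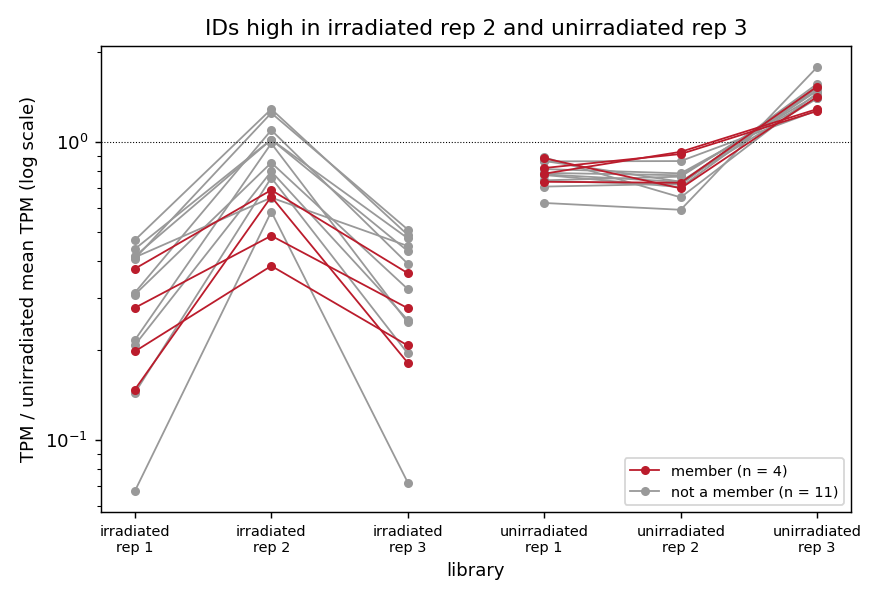
TPM of the 15 IDs that were high in irradiated replicate 2 and in unirradiated replicate 3, relative to each ID's mean in unirradiated libraries (vertical axis, logarithmic), for irradiated libraries on the left and unirradiated libraries on the right. The 4 members (red) stay below their unirradiated mean in irradiated replicate 2, which the rule requires of every member. Some of the 11 other IDs (grey), which are not bound by the rule, reach or pass their unirradiated mean there.

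The same profile was frequent among the abundant IDs that failed only the separation of groups. It asks for a high irradiated replicate 2, which itself makes overlap more likely, and 4 IDs with it were members. Of 179 IDs that met the limits of level and ratio, 5 were not members because the groups overlapped, and 4 of these 5 had the profile. SMED30017639 had 477.3, 1826 and 579.4 TPM in irradiated libraries, against 2036, 1494 and 3347 TPM in unirradiated libraries. SMED30028552 had 177.8, 937.6 and 241.2 TPM in irradiated libraries, against 957.9, 871.8 and 1879 TPM in unirradiated libraries. SMED30007501 and SMED30013673 were alike, with 948.0 and 483.9 TPM in irradiated replicate 2. In each of the 4, irradiated replicate 2 exceeded a library of unirradiated animals, and the other 2 irradiated libraries lay well below all of them. The fifth, SMED30028287, overlapped through a low unirradiated replicate 3 of 150.9 TPM beside 153.1 TPM in irradiated replicate 2. The 15 IDs together took 0.450%, 1.35% and 0.510% of the pool in irradiated libraries, against 1.11%, 1.01% and 2.03% in unirradiated libraries. What set these libraries apart for these transcripts was not tested.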

How the data were processed

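RNA of whole planarians was measured by sequencing in 3 irradiated and 3 unirradiated libraries. The labels' protocols name TRIGene extraction and a NEBNext library kit. The authors deposited estimated counts and TPM for 36035 gene IDs. TPM values are length-scaled and have an equal sum in every library. The tools, transcript set, build and strandedness behind both tables were not given in the sources used here.

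Group means, ratios and shares were computed from the deposited TPM. Log2 differences are differences of mean log2 TPM without a pseudocount, and their standard errors come from the spread between libraries. Relative length is the ratio of estimated count to TPM, scaled within each library to the median of IDs at 20 TPM or more and averaged. A count was taken as whole within 1e-06. Estimated counts were rounded and tested with edgeR 4.0.16 (R 4.3.3): default low-count filter (minimum count 10), TMM factors, quasi-likelihood F test, Benjamini-Hochberg adjustment over all 20378 IDs tested, threshold 0.05. The fit was checked on simulated counts. Alternatives used DESeq2 1.42.0 and limma 3.58.1. Named IDs were the 6 most abundant members, those at each limit of the rule, and the longest and shortest; others were named after their values were seen. The members and comparisons were chosen with earlier results of these data known. Gene lists had been set up by symbol, but 0 IDs carried a name, so no list was used. Chi-square per degree of freedom between libraries of a group was 2.55 to 5.26, so no pair agreed within sampling noise.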

Additional observations from a re-analysis of the deposited data

How the results depend on the processing

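The number of members moved with the limits of the rule: 269 IDs with a limit of 10 TPM and 94 with 50 TPM, against 174. It lay between 158 and 201 under the other settings, with 201 for TMM-scaled CPM and 161 to 176 when 1 library was left out. Leaving out a library kept between 153 and 161 of the 174 IDs. The members' summed share was lower in irradiated animals by 1.59 percentage points; this difference was -1.66 with a limit of 10 TPM, -1.44 with 50 TPM, -1.89 without the separation of groups, -1.47 with whole counts only and -1.17 without SMED30005838 (the last chosen after seeing the data). It lay between -2.11 and -1.51 when 1 library was left out, lowest without irradiated replicate 2, when abundant IDs that are high in that library become members.

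The members' median log2 fold change was -1.27 in edgeR, -1.26 with RLE factors, -1.21 with upper-quartile factors, -1.23 with library totals, -1.26 in DESeq2 and -1.22 from log2 TPM, and -1.30 to -1.25 when 1 library was left out. Members called lower numbered 169 to 173 over all settings, while calls over all IDs numbered 3208 to 4379 lower and 2376 to 4191 higher. The replicate block gave 172 members called lower, 4061 IDs lower and 2856 higher. Deviations of equally numbered libraries correlated at -0.045, 0.067 and -0.071, and no source pairs them. Depth limits 6 members with under 20 counts in some library; without them the number was 168, a setting added after seeing the data.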
